A study of Homo sapiens with 4 samples.

Results

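The events described here are pairs of splice junctions of one gene that the deposited splicing table annotates as alternative promoter, a label meant for junctions that leave different first exons. All events with that annotation and with values in all 4 libraries were taken, which gave 205 of 3744 complete events, in 161 of 2166 genes with any event. The libraries are poly-A selected RNA of A549, a human lung adenocarcinoma cell line, in 2 groups of 2. The wild-type group carries unaltered RBM10, and the knockdown group was transduced with a lentivirus encoding an shRNA against RBM10, an RNA-binding regulator of splicing, and kept in puromycin at 1 µg per ml for 10 to 14 days. Both groups are A549 cells, and whether they were grown or sequenced together is not known here. The knockdown cells are a selected population made with 1 shRNA sequence, and the labels are silent on a control virus or puromycin for the wild-type group, so effects of RBM10 and of transduction and selection cannot be told apart. Nothing in the labels says whether the replicates were separate cultures, so p-values here cover only the library-to-library spread, and that may be technical.

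A promoter is the DNA at which transcription of a gene begins, and many human genes have more than 1. A transcript from the upstream promoter splices its first exon over the downstream first exon to a shared second exon, and a transcript from the downstream promoter starts inside what is otherwise intron. The choice changes the 5′ leader of the mRNA and, where a first exon holds a start codon, the N-terminus of the protein. A junction read cannot tell a change in initiation from a change in how a first exon is spliced or how stable the transcript is, and in RNA of many cells a change of share within each cell and a change in the mix of cells cannot be told apart.

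The measure is PSI (percent spliced in), the share of 1 examined junction when set against a competing background junction. In 182 of the 205 events both junctions entered the same acceptor, so the order of the donors along the gene showed which first exon lay upstream. The examined first exon was the upstream one in 90 of these events and the downstream one in 93 of the readable 183, which include NDUFB5, whose junctions shared neither end. The other 22 events shared the donor and gave no order. The events made up 169 junction pairs, of which 36 were listed in both orders, so 2 events of a gene often hold the same information. Over these 36 pairs the 2 PSI summed to a median of 98.6%, from 50% to 100%, so 1 PSI is not read as 100% minus the other.

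HNF4A and RCAN1 show what a first exon can carry, since both of their starts lie in coding first exons, and their junctions are printed here. Each is 30 bases of GENCODE v29 transcript sequence on the coding strand, with the last 15 bases of the first exon in capitals and the first 15 bases of the shared exon in lower case.
HNF4A upstream: TGGAGAGTTCTTACGacacgtccccatcag
HNF4A downstream: TGACGATGGGCAATGacacgtccccatcag
RCAN1 upstream: GACGGCCTGTGCCGGgccaaatttgagtcc
RCAN1 downstream: GAAAGTGAAACCAGGgccaaatttgagtcc
The capitals differ while the lower-case bases are the same within each gene. The upstream and downstream first exons of HNF4A hold 49 and 115 coding bases, and those of RCAN1 hold 252 and 87.

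For each gene the first-listed start in the RefSeq promoter table (GRCh38.p14) was used. Of the genes with a higher upstream share in knockdown at an unadjusted limma p under 0.05, 8 have it at their upstream first exon alone. This means within 100 bp of an annotated start of that exon. Promoters are shown for 4 of them, picked after their values were seen, as the 2 genes printed above and the 2 with the largest increase in RNA. The 250 bases before the RefSeq start are printed 5′ to 3′ on the gene's strand, with matches to a GC box (GGGCGG) or a CCAAT box (CCAAT), on either strand, in capitals. They are HNF4A at chr20:44355449-44355698 (plus strand), RCAN1 at chr21:34615114-34615363 (minus), LAMB3 at chr1:209652426-209652675 (minus) and CD24 at chr6:106975628-106975877 (minus).
HNF4A: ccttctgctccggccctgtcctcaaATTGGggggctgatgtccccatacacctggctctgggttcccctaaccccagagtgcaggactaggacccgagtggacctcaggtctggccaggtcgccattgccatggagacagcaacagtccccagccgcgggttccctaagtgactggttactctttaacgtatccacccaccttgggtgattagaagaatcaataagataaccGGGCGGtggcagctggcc
RCAN1: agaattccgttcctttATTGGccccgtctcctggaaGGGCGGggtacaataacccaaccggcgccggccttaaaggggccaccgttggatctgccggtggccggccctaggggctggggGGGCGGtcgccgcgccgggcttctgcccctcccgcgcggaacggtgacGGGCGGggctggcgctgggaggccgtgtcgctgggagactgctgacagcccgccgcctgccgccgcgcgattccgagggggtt
LAMB3: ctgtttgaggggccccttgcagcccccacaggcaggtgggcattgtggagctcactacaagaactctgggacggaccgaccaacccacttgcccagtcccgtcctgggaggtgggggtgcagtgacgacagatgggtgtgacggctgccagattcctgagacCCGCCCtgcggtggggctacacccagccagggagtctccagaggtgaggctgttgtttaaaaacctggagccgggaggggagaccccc
CD24: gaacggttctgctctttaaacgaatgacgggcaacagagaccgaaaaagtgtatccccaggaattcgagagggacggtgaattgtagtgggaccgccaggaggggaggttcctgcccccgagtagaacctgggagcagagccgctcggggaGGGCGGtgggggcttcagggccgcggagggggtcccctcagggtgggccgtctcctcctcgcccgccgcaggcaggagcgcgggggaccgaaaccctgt
A GC box occurred once in HNF4A, LAMB3 and CD24 and 3 times in RCAN1, a CCAAT box once in HNF4A and RCAN1, and no matches overlapped. The other 4 are FUT8, LIMCH1, PLAC8 and ZBTB7A. Over all 8, a GC box was found in 5 and a CCAAT box in 3, and no match to a TATA box (TATAAA) was found in these windows.

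RBM10 itself was at 35.5 and 40.8 RPKM in wild-type replicates 1 and 2 and at 11.6 and 10.9 RPKM in knockdown replicates 1 and 2, and it fell by 1.67 on the log2(RPKM + 1) scale (limma with Benjamini-Hochberg adjustment, adjusted p = 1.01e-05). RPKM are reads scaled by gene length and depth. Of 6 epithelial marker genes, 5 were higher in knockdown, with a summed level of 2364 to 2699 RPKM in wild type and 4331 to 4367 RPKM in knockdown, and the part of this shift in the results was not tested. Of the alveolar type 2 markers only NAPSA was in the table, at 0.340 to 0.736 RPKM. Endothelial and fibroblast markers in the table were at 0.177 RPKM or less, and the monocyte-lineage gene CD68 was at 1.56 and 1.72 RPKM in wild type and 3.49 and 3.57 RPKM in knockdown. Reads per library were about 40000000 pairs of 100 bases per the labels, and the reads behind each PSI are unknown.

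No alternative promoter event passed the test over all events in the limma fit, where the smallest Benjamini-Hochberg adjusted p among the 205 was 0.209 and 0.107% of all 3744 events (4 events) were called. At an unadjusted p under 0.05, 35 events differed, all by 10 percentage points or more. These were 17.1% of the events, in 26 genes, against 18.4% over all event types, so the share is near the background. By direction, 17 events had a higher PSI (8.29%, background 9.27%) and 18 a lower one (8.78%, background 9.13%). The groups did not overlap in 120 events (58.5%, background 54.2%). The 35 events had adjusted p from 0.209 to 0.269, so their differences, and those of the other events named, are given as values. The table lists only events whose PSI spread over the libraries was 15 points or more, which raises differences within groups as well as between them. The median absolute difference between groups was 15.3 points, against 10.2 between the wild-type replicates and 12.2 between the knockdown replicates.

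Upstream and downstream first exon name the donor positions here and below, whether or not the donor belongs to an annotated first exon. Read by this position, 26 of the 35 events moved toward the upstream donor in knockdown (19 genes) and 9 toward the downstream one (7 genes). Without knockdown replicate 2 the split was 8 against 9, without wild-type replicate 1 it was 8 against 2, without wild-type replicate 2 it was 11 against 5, and without knockdown replicate 1 it was 12 against 2. On the arcsine scale it was 23 against 13 and on the logit scale 20 against 11. Over all 146 genes with a readable order, taking for each the event with the widest spread, 64 genes were 10 points or more toward the upstream first exon and 36 toward the downstream one, with a median of 6.38 points toward upstream. Leaving out each library in turn gave from 58 to 72 genes toward upstream and from 37 to 46 toward downstream. Between the 2 wild-type replicates the same count was 35 against 38 and between the 2 knockdown replicates 44 against 39. The direction was counted as a description, with no test, since genes are not replicates of a condition. With all libraries, both donors were in annotated first exons in 15 of the 26 events toward upstream and 6 of the 9 toward downstream. In 8 and 3 events 1 donor was, and in 3 and 0 neither was.

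**Figure D1:**
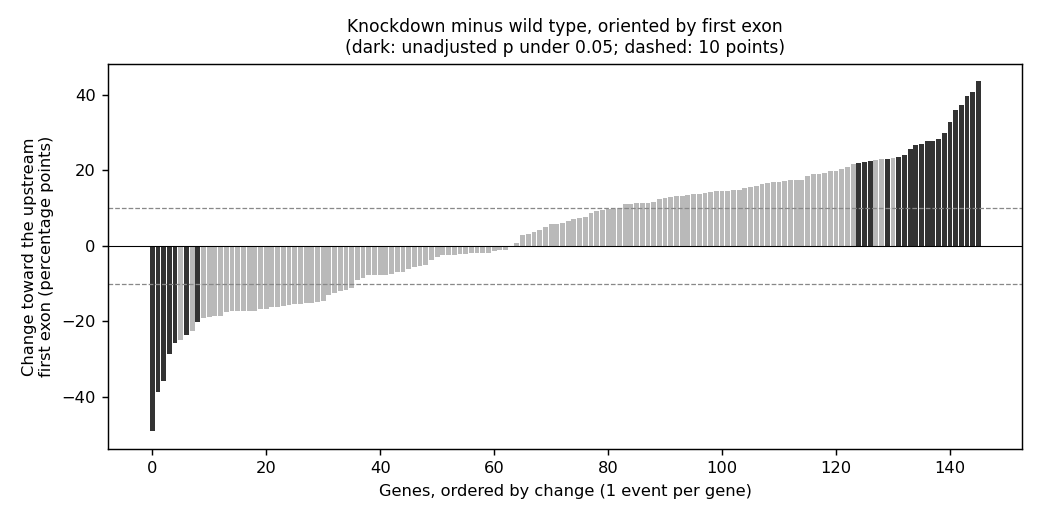
Change in junction use by donor position for 146 genes, 1 bar each, as knockdown minus wild-type mean PSI in percentage points. Bars above 0 show a change toward the upstream donor. Bars of 10 points or more number 64 above and 36 below 0, and dark bars mark an unadjusted limma p under 0.05.

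The same lean can be read in the PSI of both kinds of event, but they are not independent. A junction pair listed in both orders counts once in each kind. In the 90 events that examined the upstream first exon, median PSI was 45.8% and 44.6% in the wild-type libraries and 54.8% and 50.4% in the knockdown libraries. In the 93 that examined the downstream one it was 55% and 54.5%, then 53.1% and 48.5%. The median change within events was 2.94 points and -9.33 points.

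**Figure D2:**
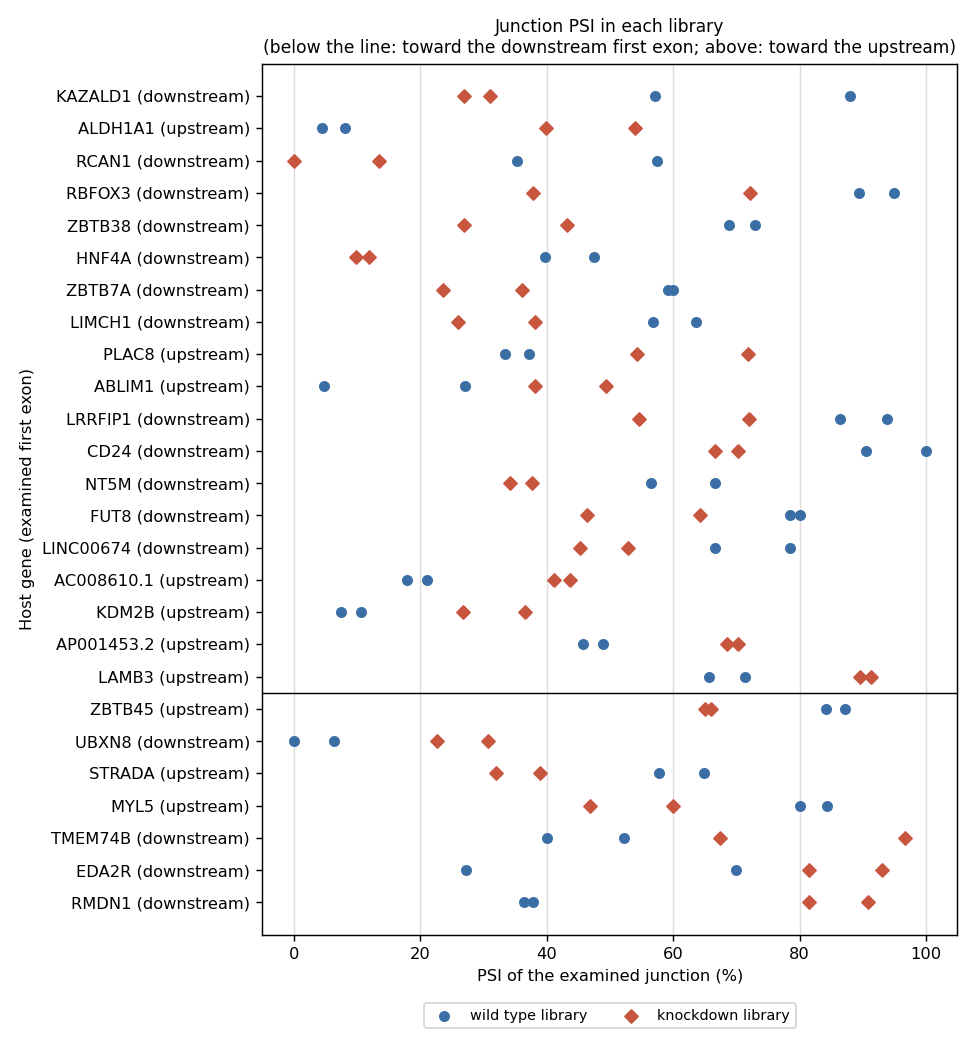
PSI of the examined junction, in percent, in each of the 4 libraries for the 26 genes with an event at an unadjusted p under 0.05, 1 event per gene, with the examined first exon named in brackets. The wild-type circles and knockdown diamonds do not overlap in any row, and the 7 genes under the line are those that moved toward the downstream donor in knockdown.

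Among regulators of transcription, HNF4A, a nuclear receptor of liver and gut, had more of its upstream first exon in knockdown. Its downstream promoter, known as P1, is the one used in adult liver, and its upstream promoter, P2, is used in pancreas and fetal tissue. The junction of the downstream first exon (hg38, chromosome 20, donor 44401487) had a PSI of 47.4% and 39.7% in wild type and 9.84% and 11.9% in knockdown, a difference of -32.7 points (SE 8.59). The upstream junction (donor 44355853) had 50% and 59%, then 82% and 84.7%, a difference of 28.9 points (SE 8.71). The donors lie 45634 bp apart, and both knockdown libraries lay outside the wild-type range for each junction. HNF4A RNA was at 3 and 3.61 RPKM in wild type and 2.79 and 2.45 RPKM in knockdown, which did not pass (adjusted p = 0.18).

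ZBTB38, a zinc finger protein that binds methylated DNA, had 73% and 68.9% of its downstream junction in wild type and 43.2% and 26.8% in knockdown (-35.9 points, SE 9.55). Its RNA was higher in knockdown, by 0.58 on the log2 scale (adjusted p = 0.0132). ZBTB7A, a zinc finger repressor, had 60% and 59.2%, then 23.6% and 36%, for the downstream junction (-29.8 points, SE 9), and 38.3% and 40.8%, then 66.7% and 64%, for the upstream one. Its host level was under 1 RPKM in all 4 libraries. KDM2B, a histone demethylase of Polycomb complexes, had 7.41% and 10.6%, then 36.5% and 26.7%, for the junction of an annotated internal exon upstream of the other donor, which is the first exon of a retained-intron transcript. KDM2B and the other genes past the unadjusted threshold but beyond the 12 largest (NT5M, FUT8, LINC00674, AC008610.1, AP001453.2 and LAMB3) were named after their values were seen.

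RCAN1 is an inhibitor of the phosphatase calcineurin, and its downstream start is known to be induced by calcineurin and NFAT signalling. The upstream junction (chromosome 21, donor 34614760) stood at 42.6% and 64.7% in wild type and 100% and 86.5% in knockdown, 39.6 points higher (SE 11). The downstream junction (donor 34526663, 88097 bp away) stood at 57.4% and 35.3%, then 0% and 13.5%. The gene was at 0.487 to 0.659 RPKM, below the expression filter, and the number of reads behind a PSI of 0% or 100% there is unknown.

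Among enzymes, ALDH1A1, which oxidizes retinaldehyde and is abundant in A549, had a junction from a donor at 73080367 on chromosome 9 at 4.35% and 8.11% in wild type and 54% and 39.8% in knockdown (40.7 points, SE 9.26). The RNA was also higher, at 2088 and 1874 RPKM, then 2959 and 3089 RPKM (0.61 on the log2 scale, adjusted p = 0.00127). The shared acceptor of this event (72953014) lies inside the annotated first exon of the main ALDH1A1 transcripts, so both of its junctions come from starts upstream of the main start and the PSI does not measure the main start. The background donor (72955987) is not in GENCODE v29. PLAC8, a small cysteine-rich protein, had 37.1% and 33.3%, then 54.3% and 71.9%, for its upstream junction (27.8 points, SE 9.71). Its RNA was at 0.639 and 0.500 RPKM, then 1.11 and 1.04 RPKM (0.40 on the log2 scale, limma adjusted p = 0.0272). PLAC8 passed the expression filter of 1 RPKM only through its knockdown mean, so this p-value is not read as support for a rise.

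KAZALD1, a secreted protein of the insulin-like growth factor binding family, had 88% and 57.1% of its downstream junction in wild type and 31% and 26.9% in knockdown (-43.6 points, SE 12). Without wild-type replicate 1 the difference was -28.2 points. Its RNA was at 0.546 and 0.682 RPKM, then 1.18 and 1.08 RPKM (limma adjusted p = 0.0277). KAZALD1 too passed the expression filter only through its knockdown mean, so this p-value is not read as support for a rise. NT5M, a mitochondrial nucleotidase, had 30.4% and 39.8%, then 58.2% and 62.7%, for its upstream donor, but that donor is 18 bp from the other and both are annotated ends of internal exons. FUT8, which adds the core fucose to N-glycans, had 80% and 78.6%, then 64.3% and 46.3%, for its downstream junction, and the difference was -15 points without knockdown replicate 2 and -24 with it.

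Among genes of the cytoskeleton, the cell surface and the matrix, LIMCH1, an activator of non-muscle myosin, had 56.8% and 63.7% of its downstream junction in wild type and 26% and 38.2% in knockdown (-28.2 points, SE 9.18). LIMCH1 RNA was at 7.62 and 6.32 RPKM, then 12.5 and 15.5 RPKM. ABLIM1, an actin-binding LIM protein, had 27.1% and 4.76%, then 38.1% and 49.3%, for the upstream junction (27.8 points, SE 10.8), and 16.6 points without wild-type replicate 2. The wild-type replicates of ABLIM1 thus lay further apart than wild-type replicate 1 and knockdown replicate 1. LRRFIP1, a nucleic acid-binding protein, had 93.9% and 86.5%, then 72% and 54.5%, for its downstream junction (-26.9 points, SE 9.85).

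CD24, a lipid-anchored surface glycoprotein, and LAMB3, a beta chain of epithelial basement membrane laminin, had a higher upstream share together with more RNA. The upstream junction of CD24 (chromosome 6, donor 106975369) was at 9.52% and 0% in wild type and 29.7% and 33.3% in knockdown (26.8 points, SE 8.78), and its RNA was at 9.13 and 9.52 RPKM, then 21.8 and 20.7 RPKM (1.11 on the log2 scale, adjusted p = 7.47e-05). The upstream junction of LAMB3 (chromosome 1, donor 209652369) was at 71.4% and 65.7%, then 91.4% and 89.6% (21.9 points, SE 8.47). LAMB3 RNA was at 4.92 and 5.02 RPKM, then 21.4 and 20.8 RPKM (1.89 on the log2 scale, adjusted p = 4.46e-06). In GENCODE v29 the first exons of the CD24 junctions overlap (106975369-106975627 upstream, 106975134-106975465 downstream). A change of start and a change of donor within 1 start region cannot be told apart there. CD24 and KRT8 have near-identical processed copies in the genome, so their RPKM are uncertain.

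RBFOX3, a splicing regulator known from neurons, had 95% and 89.5% of its downstream junction in wild type and 72.2% and 37.8% in knockdown, at a host level of 0.2 to 0.401 RPKM. The difference was -37.2 points (SE 12.8), and -20 points without knockdown replicate 2. Of the noncoding genes, LINC00674 had 66.7% and 78.6%, then 52.8% and 45.3%, for its downstream junction. AC008610.1 had 21.1% and 17.9%, then 41.2% and 43.8%, for its upstream junction, and neither of its donors is annotated. AP001453.2 had 45.7% and 48.9%, then 70.2% and 68.6%, for its upstream junction, and overlaps PPP1R14B on the other strand.

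In 7 genes PSI moved toward the downstream donor in knockdown, whether or not that donor then had the larger share. RMDN1, a microtubule-associated protein, had the largest difference of all 205 events and the smallest adjusted p. Its downstream junction (chromosome 8, donor 86470218) was at 37.8% and 36.4% in wild type and 90.9% and 81.5% in knockdown (49.1 points, SE 8.72, adjusted p = 0.209), with RNA at 6.9 and 5.82 RPKM, then 5.84 and 5.59 RPKM. GENCODE v29 has that donor only as the end of an internal exon. RMDN1, HNF4A and ALDH1A1 were the 3 of 26 genes whose event also passed the unadjusted threshold with each of the 4 libraries left out. ZBTB38 passed in 3 of these 4 fits, 2 genes in 2, 16 genes in 1, and AC008610.1, AP001453.2, LAMB3 and ZBTB45 in none.

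EDA2R, a receptor of the TNF receptor family, had 27.3% and 70% of its downstream junction in wild type and 93.1% and 81.6% in knockdown (38.7 points, SE 14.9). The wild-type replicates were far apart, and the difference was 17.3 points without wild-type replicate 1 and 60.1 without wild-type replicate 2. TMEM74B, a transmembrane protein, had 40% and 52.3%, then 96.7% and 67.4% (35.9 points, SE 12.2), or 21.3 points without knockdown replicate 1, at 0.504 to 0.728 RPKM. MYL5, a myosin regulatory light chain, had 84.4% and 80%, then 46.9% and 60%, for the upstream junction (-28.8 points, SE 9.16).

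STRADA, a pseudokinase that activates LKB1, had 57.7% and 64.9% of its upstream junction in wild type and 32% and 39% in knockdown (-25.8 points, SE 8.76). UBXN8, an endoplasmic reticulum protein that binds the ATPase VCP, had 0% and 6.32%, then 30.8% and 22.6%, for the downstream junction (23.5 points, SE 8.79). It was the 1 tested gene of the 26 whose RNA fell, at 4.65 and 4.5 RPKM, then 2.51 and 3.23 RPKM, a log2 change of -0.53 (adjusted p = 0.0144). ZBTB45, a zinc finger protein, had 87.1% and 84.1%, then 66% and 65%, for its upstream junction.

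Of 55 genes listed for their known alternative promoters, 5 had an event, and HNF4A was the 1 of them past the unadjusted threshold. Over all events 18.4% passed that threshold. NR3C1, the glucocorticoid receptor, had 67.5% and 60.2%, then 48.6% and 44.6%, for its downstream junction (-17.2 points, SE 8.62, adjusted p = 0.288). MDM2, the ubiquitin ligase of p53, whose downstream promoter answers to p53, had 59.7% and 64.4%, then 46.9% and 47.2%, for its upstream junction (-15 points, SE 8.4, adjusted p = 0.31). NRG1, a ligand of ERBB receptors, had 31% and 28.6%, then 15.7% and 15%, for its downstream junction (-14.4 points, SE 8.33, adjusted p = 0.319), with RNA 0.76 higher on the log2 scale (adjusted p = 0.00185). The groups did not overlap in these 3 genes, as in 54.2% of all events. DLC1 had 90.7% and 72%, then 61.5% and 76%, and its groups overlapped. The DLC1 difference of -12.6 points ranged from -21.9 to -3.23 with 1 library left out.

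In 4 genes the replicates of a group differed most while the group means lay within 10 points. SMARCAL1, a helicase that anneals DNA, had 42.6% and 89.2% of its upstream junction in wild type and 68.2% and 60% in knockdown. PIDD1, a death domain protein induced by p53, had 67.9% and 32.1%, then 39.5% and 74.2%, for its downstream junction. GEM, a small GTPase, had 34.1% and 50%, then 63.5% and 26.8%, and CTB-178M22.2 had 23.1% and 59.1%, then 34.8% and 31.8%, both for the upstream junction. In each of these 4 genes the ranges of the groups overlapped.

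The 22 events that shared a donor came from 18 genes, and none passed the unadjusted threshold in the limma fit (background 18.4%). The largest difference among them was in C9orf3, an aminopeptidase gene, with 42.5% and 23.3%, then 64% and 50%, for one acceptor (24.1 points, SE 10.6), and 14.5 points without wild-type replicate 2. KRT8, a keratin of simple epithelia, had 34.8% and 39%, then 22.8% and 13.5% (-18.8 points, SE 8.78). KRT8 was named here after its value was seen.

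The distance between the donors of a pair ranged from 4 to 143318 bp, with a median of 1463 bp. Over 10000 bp, 11 of 56 events passed the unadjusted threshold (19.6%, background 18.4%), in 7 genes, and all 11 were toward the upstream first exon. They were in ALDH1A1, RCAN1, RBFOX3, HNF4A, KDM2B, ABLIM1 and ZBTB38. No event of this distance passed toward the downstream first exon under any of the 10 alternative fits, in which from 3 to 12 passed toward upstream. Between 1000 and 10000 bp 15 of 52 events passed (28.8%, background 18.4%), 9 toward upstream and 6 toward downstream. At 1000 bp or less 9 of 75 passed (12%, background 18.4%), 6 toward upstream and 3 toward downstream. The share that passed was thus highest in the middle class. Over genes, 26 of 42 with distant donors were 10 points or more toward upstream and 6 toward downstream, with a median of 13.1 points. Among the 62 genes with donors within 1000 bp, 19 were toward upstream and 20 toward downstream, with a median of -1.80 points. In the 42 genes between these distances, 19 were toward upstream and 10 toward downstream, with a median of 6.38 points. Leaving out each library gave 22 to 28 against 7 to 10 for distant donors. Within 1000 bp the lean had no stable side, with 22 against 16 genes (median 1.54 points) without wild-type replicate 1, 20 against 27 (-4.34) without wild-type replicate 2, 16 against 21 (1.62) without knockdown replicate 1 and 25 against 22 (3.75) without knockdown replicate 2. A difference between the distance classes was not tested.

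**Figure D3:**
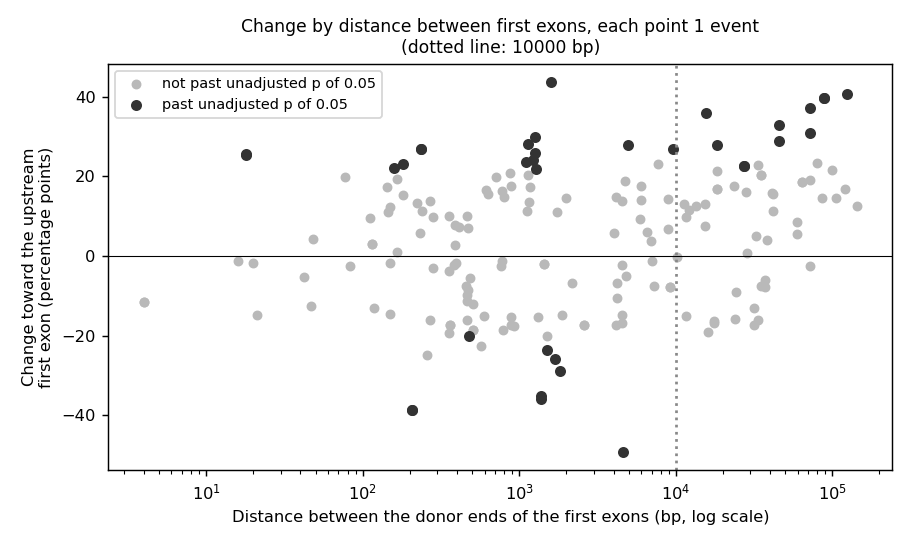
Change toward the upstream first exon in percentage points (knockdown minus wild type) against the distance in bp between the donor ends, on a log axis, for the 183 events with a readable order. Dark points passed an unadjusted p of 0.05, and right of the dotted line at 10000 bp all 11 of them lie above 0.

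Annotation showed that the label alternative promoter covers several structures. Of 150 readable junction pairs, both donors belonged to an annotated first exon in 99, one in 41 and neither in 10, and 10 pairs had donors within 100 bp of each other. Where both donors were in annotated first exons, 21 of 124 events passed the unadjusted threshold (16.9%, background 18.4%), with 15 toward upstream and 6 toward downstream. In 57 of the 182 events with a shared acceptor, a GENCODE first exon also overlapped the acceptor, so a further start lies outside the measured pair. Of these 57 events, 10 passed the unadjusted threshold (background 18.4% of all events). They were in ALDH1A1, RCAN1, LAMB3, CD24, EDA2R, MYL5 and STRADA, and PSI there is not the share of all starts of the gene. Of 81 pairs with both donors in first exons of coding transcripts, the start codon lay in both first exons in 11, in one in 18 and in neither in 52. In the last kind the first exons lie in the 5′ leader. Whether the transcripts of such a pair share a start codon in a later exon was not tested. The authors' deposited table marks 100 of the events with an alternative N-terminus.

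The events came from genes of low level, with a median of 2.88 RPKM against 5.62 RPKM over tested genes. In hosts under 1 RPKM, 10 of 35 events passed the unadjusted threshold (28.6%), in hosts at 1 to 5 RPKM 15 of 104 (14.4%) and in hosts at 5 RPKM or more 10 of 66 (15.2%). The larger of the 2 replicate differences of an event had a median of 21.5, 20.1 and 11.6 points in these classes, so replicates were closest in the hosts with most RNA. In 103 of the 161 host genes, and in 13 of the 26 with an event past the unadjusted threshold, a gene on the opposite strand overlapped, such as HNF4A-AS1 at HNF4A, WWP1 at RMDN1, MAP3K3 at STRADA and PSMF1 at TMEM74B. The library kit keeps strand, but the use of strand in counting is not given in the sources used here.

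RefSeq promoters matched 128 of the 161 genes. Only the first-listed RefSeq start of each gene was used, and it was compared with annotated starts of the first exons. It lay within 100 bp of a start of the upstream first exon in 41 of 121 readable pairs. In 11 this held for the downstream one, in 10 for both and in 59 for neither. A RefSeq start further inside a long first exon counts as neither. Over the 250 bases before the start, searched on both strands, a GC box (GGGCGG) was found in 63.2% of 117 promoters of these genes and in 42.6% of 35116 promoters in the table. A CCAAT box was in 29.1% and 32%, TATAAA in 7.69% and 10.7%, the E box CACGTG in 9.4% and 6.34%, the AP-1 site TGACTCA in 0% and 4.2%, and the HNF1 core GTTAAT in 6.84% and 6.23%. Median GC content was 62.4% and 58%. The 35116 are all promoters in the table, not limited to the first-listed start of a gene or to expressed genes. The sets compared were thus chosen differently, and whether the differences are a trait of these genes was not tested. These shares describe the letters of the windows.

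Of the 161 host genes, 141 were expressed enough to be tested, and 41 rose (29.1%, background 15.3% of 10182 genes) and 6 fell (4.26%, background 7.03%; limma, adjusted p under 0.05). A gene was tested if either group averaged 1 RPKM, here and in the background, so some genes entered only through the group where they were high. Among those that rose, HOXA3, KAZALD1, PLAC8, EEF1AKMT3, NEMP2 and LINC00888 averaged under 1 RPKM in wild type. These genes entered through knockdown alone, and their rise is not read as support. Under quantile normalization 23 rose and 11 fell. The median log2 change was 0.16 over these hosts and 0.02 over all tested genes. After LAMB3, the largest increases were in ACTA2, a smooth muscle actin (2.67 and 2.73 RPKM, then 7.61 and 7.24 RPKM, 1.19 on the log2 scale, adjusted p = 7.51e-05), CD24, KRT8 (325 and 370, then 689 and 666 RPKM, 0.96), HSPG2, the proteoglycan perlecan (14.8 and 15.4, then 26.7 and 34 RPKM, 0.95), and LIMCH1 (0.91). ACTA2 had 31% and 13.6%, then 15.1% and 24.6%, of its upstream junction, with overlapping groups.

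The 6 host genes that fell were SFPQ, a paraspeckle and splicing protein (59.5 and 50.8 RPKM, then 35 and 39.4 RPKM, adjusted p = 0.00684), UBXN8, GPRIN2, a G protein regulator of neurite growth, MED22, a Mediator subunit, RIOX2, a histidine hydroxylase of ribosomal proteins, and C9orf3. They fell by 0.55, 0.53, 0.51, 0.45, 0.42 and 0.38 on the log2 scale in this order. Apart from UBXN8, none of these 6 had an event past the unadjusted threshold. SFPQ had 72.7% and 38.6% of its downstream junction in wild type and 53.1% and 39.5% in knockdown, with overlapping groups.

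Of the 26 genes with an event past the unadjusted threshold, 22 were tested for expression, and 11 rose, 1 fell and 10 did neither. Over all tested hosts 29.1% rose and 4.26% fell, and over all tested genes 15.3% and 7.03%. The 11 include KAZALD1 and PLAC8, which entered the test through knockdown alone. Across the 128 genes with both values, the change toward the upstream first exon and the host log2 change had a Pearson r of 0.18 and a Spearman coefficient of 0.17. This is across genes of the same 4 libraries, and genes are not independent replicates.

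**Figure D4:**
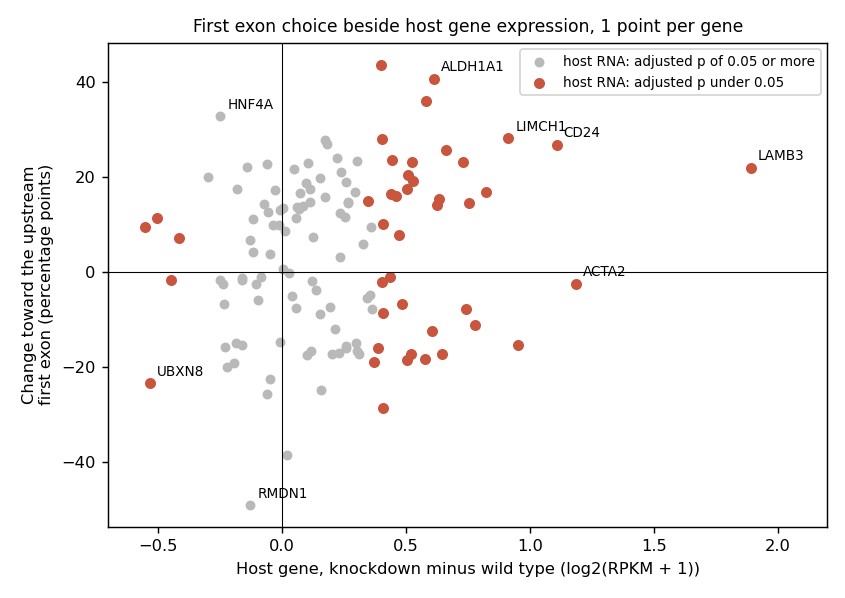
Change toward the upstream first exon (percentage points) against the host gene's change in log2(RPKM + 1), knockdown minus wild type, 1 point per gene for 128 genes. Red points are hosts with an adjusted limma p under 0.05, and LAMB3, CD24 and LIMCH1 lie in the upper right while HNF4A and RMDN1 have large PSI differences at host changes of -0.25 and -0.13.

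Genes that act at promoters and on new transcripts were read from lists, beside 15.3% of all tested genes that rose and 7.03% that fell. Of the 55 alternative promoter genes, 31 were tested and 8 rose and 1 fell, with a median log2 change of 0.05, beside 0.02 over all genes. The gene that fell was TPM1, a tropomyosin, by 0.40 (adjusted p = 0.0184), named after its value was seen. Of 37 tested genes of promoter recognition and initiation, 1 rose and none fell. It was ERCC2, a helicase of the initiation factor TFIIH, at 7.37 and 7.22 RPKM, then 10.5 and 10 RPKM (0.44 on the log2 scale, adjusted p = 0.0151). Of 20 genes that bind the cap, the first splice donor or the early polymerase, none rose and 3 fell. LUC7L, a U1-associated protein, was at 14.3 and 14.4 RPKM, then 9.67 and 9.99 RPKM (adjusted p = 0.00687). NELFCD, a subunit of the factor that pauses the polymerase, fell by 0.44 (adjusted p = 0.0128), and SNRPC, a protein of the U1 particle, fell by 0.31 (adjusted p = 0.0391).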

How the data were processed

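Poly-A RNA of 4 A549 libraries was sequenced as stranded pairs per the labels. STAR 2.6.1 and hg38 are named in the submitters' processing notes. No source used here names the splicing caller or gene counter. The authors deposited each PSI as a fraction, shown here as percent. The authors deposited gene levels whose form is that of RPKM. That unit was inferred from the values. No read counts accompany PSI, so no interval for a single PSI was computed.

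PSI of all 3744 complete events were fitted with limma 3.58.1 in R 4.3.3 (constant prior, no covariate, two-sided, Benjamini-Hochberg), with a difference of at least 10 points required. log2(RPKM + 1) was fitted with trend for the 10182 genes averaging at least 1 RPKM in either group. Both fits were first tested on simulated data. With 2 against 2 libraries an exact permutation p cannot go below 0.333. Donors and start codons were matched to GENCODE v29.

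Events named were, 1 per gene, the 12 largest in each direction past the unadjusted threshold without overlap, members of the alternative promoter list, and the 4 genes with the widest range within a group. Host genes named were the 6 largest called in each direction. Members and lists were chosen with earlier results of these data known. Alternatives were other scales of PSI and priors, other filters, pseudocounts and scaling of RPKM, a replicate block, and each library left out.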

Additional observations from a re-analysis of the deposited data

How the results depend on the processing

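No event passed the adjusted test under the alternatives run, other than with a replicate block, where 2 passed (KAZALD1, adjusted p = 0.0407, and RMDN1, adjusted p = 0.0162, limma). Replicate numbers share only a number in the labels, and same-numbered deviations correlated at -0.04 in PSI and -0.44 in log2 RPKM, so the block is not read as a pairing. The crossed block, chosen after seeing the data, gave 56 higher and 11 lower host genes, against 41 and 6. The 35 events at an unadjusted p under 0.05 became 11 to 17 with 1 library left out, where fewer samples were fitted, with 8 to 12 toward upstream and 2 to 9 toward downstream. Other scales and priors gave 31 to 38. Host genes called higher or lower were 18 and 1 with no filter on low values, 21 higher at a mean of 5 RPKM or more, where fewer genes were tested, and 23 and 11 under quantile normalization; the cause of the first and last was not tested. Leaving out each library gave 27 to 32 higher and 3 to 5 lower. Among the genes named for their spread, leaving out 1 library gave -25.1 to 21.5 points in SMARCAL1, -15.2 to 21.4 in GEM, -25.8 to 10.2 in CTB-178M22.2 and -11.1 to 24.7 in PIDD1. The sign changed without wild-type replicate 2 in SMARCAL1, CTB-178M22.2 and PIDD1, without knockdown replicate 2 in SMARCAL1 (2.31) and PIDD1 (-10.5), and without wild-type replicate 1 (-4.84) or knockdown replicate 1 in GEM. Of the other values of named events, 184 kept direction and side of the threshold and 52 kept direction only. With 2 libraries a group and unknown read counts per junction, PSI of hosts under 1 RPKM are the least precise.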
